A study of Homo sapiens with 20 samples.

Results

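Rh41 is an established line of pediatric alveolar rhabdomyosarcoma, a soft-tissue tumour of the skeletal muscle lineage driven in most cases by a fusion of the transcription factors PAX3 or PAX7 with FOXO1. The comparison set 5 arrays of Rh41 cells resistant to prexasertib, a drug that blocks the checkpoint kinase CHK1, against 3 arrays of parental Rh41 cells. These 8 arrays were taken by their sample titles out of 20 arrays of 3 tumour cell lines. Resistant cells came, per the study's methods, from independent cultures exposed to rising concentrations of prexasertib, while parallel cultures received the solvent DMSO. No transgene, allele or second agent is given for any of these groups. Whether the parental arrays were made from the solvent cultures, and whether drug was in the medium when RNA was taken, is stated neither by the labels nor by the methods, so direct effects of the drug and acquired resistance cannot be told apart.

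CHK1 is activated by ATR when replication forks stall. It restrains CDC25 phosphatases and through them CDK2 and CDK1, which keeps late origins from firing and holds cells out of mitosis until forks are repaired. Interferons bind surface receptors whose JAK kinases activate STAT proteins, and a STAT dimer joined by IRF9 then binds interferon-stimulated response elements in the promoters of antiviral genes. Rhabdomyosarcoma cells express the myogenic factors MYOD1 and MYOG but do not complete muscle differentiation, the stage at which sarcomere proteins accumulate.

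RNA was hybridized to Clariom S arrays, on which a transcript cluster is the set of probes for 1 gene. All values below are log2 values as deposited, so a difference of 1 is a doubling on that scale. Of 21448 clusters, 17709 mapped to a single gene symbol and entered the test, and they held 17687 distinct symbols. A gene is said to have risen or fallen where limma, a linear model with moderated variances, gave an adjusted p under 0.05 and the change exceeded 1.5-fold, and errors of changes are the moderated standard errors (SE). A group mean under 5 was taken as low signal, since it was not shown to lie above background, and the size of a change from or to such a mean is uncertain. Array values hold no count of molecules, so the number of arrays limits the precision. The Rh41 arrays had been normalized on their own, with a narrower scale than the other lines (standard deviation of all values 1.99, against 2.99 in the other lines), and folds hold on that scale alone. Within a group every pair of arrays had a correlation of at least 0.983, and the first principal component, with 55.6% of the variance, separated all 5 resistant arrays from all 3 parental arrays.

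Resistant Rh41 cells differed from parental cells at 1008 clusters that rose and 546 that fell, 5.69% and 3.08% of those tested and 8.78% together. The rises were larger than the falls. At more than 2-fold 352 rose and 110 fell, at more than 4-fold 69 rose and 8 fell, and at more than 8-fold 29 rose and 0 fell. The largest rise was 4.99 and the largest fall -2.35. The median change over all clusters was -0.03. In 2406 clusters (13.6%) every resistant array lay above every parental array and in 2238 (12.6%) below, so groups that do not overlap were common across the array. Parental means were at low signal, with the resistant mean above it, in 172 of the rises, and both means were at low signal in 116. Among the 172 are IRF1, USP18, RIGI, GBP1, PSMB9, CSF1, CCL2, PDCD1LG2, CASP4, CASP8, SAMD9, SRL, SLN, ITGA3, SLC2A3 and TEK, given below.

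The cells carried markers of their lineage, and the markers given here did not all move the same way. CDH3 and CHRND, chosen as markers of the same lineage, are not given. MYOG averaged 10.95 in resistant and 11.01 in parental arrays, DES, the muscle intermediate filament desmin, 10.45 and 9.60, and CHRNA1, a subunit of the muscle acetylcholine receptor, 11.21 and 10.90. Other lineage markers fell, with MYOD1 at 7.28 in resistant and 7.90 in parental arrays, FGFR4 at 9.53 and 10.31 and TFAP2B at 6.74 and 8.13. NOS1, given below, was lower as well. PAX3 averaged 8.03 and 8.49, a change under 1.5-fold, and MYCN did not pass the test. Of 20 leukocyte markers 0 rose and 0 fell by limma (1 higher and 3 lower at an unadjusted p under 0.05), and the mean of the list ranged from 4.48 to 4.60 in resistant arrays and from 4.53 to 4.75 in parental arrays. The pan-leukocyte gene PTPRC averaged 4.01 and 4.06 and the lysozyme gene LYZ 2.97 and 3.07, all at low signal. Of 17 epithelial markers 2 rose (11.8%, against 5.69% of all clusters). Their list mean was 5.04 to 5.13 in resistant and 4.88 to 5.09 in parental arrays, and EPCAM averaged 3.60 and 3.61. Of 14 endothelial markers 4 rose, and they are given below. In bulk RNA, fewer cells of a kind and less RNA per cell cannot be told apart.

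The genes with the largest rises came from 2 groups in the main. IFI44L, IFIT1, SAMD9 and IFI6 are interferon-induced antiviral genes, and MYL11 and MYBPH encode sarcomere proteins. The other 4 were MAMDC2, which encodes a secreted protein with MAM domains, TMSB4X, which encodes the actin-binding peptide thymosin beta-4, PDCD1LG2, which encodes the PD-1 ligand PD-L2, and CASP4, which encodes an inflammatory caspase that senses bacterial lipopolysaccharide in the cytosol.

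IFI44L stood at 7.93, 8.20, 8.33, 8.55 and 9.03 in resistant replicates 1 to 5, against 2.93, 3.85 and 3.48 in parental replicates 1 to 3 (change 4.99, SE 0.25, limma adjusted p = 3.19e-07). IFIT1, whose product binds viral RNA with foreign caps, stood at 7.48, 7.68, 7.74, 7.86 and 8.47 in resistant arrays, against 3.10, 3.56 and 3.43 in parental arrays (change 4.49, SE 0.20, adjusted p = 1.36e-07). Both genes were at low signal in all 3 parental arrays, and resistant replicate 5 was the highest array for each. IFI6, which encodes a membrane protein that restricts flavivirus replication, was well measured in both groups, at 11.57, 11.74, 11.81, 11.74 and 12.00 in resistant arrays, against 7.60, 7.73 and 8.0 in parental arrays (change 3.99, SE 0.13, adjusted p = 1.8e-08). SAMD9, a restriction factor of poxviruses, stood at 7.70, 7.66, 7.82, 7.60 and 8.22 in resistant arrays, against 4.13, 2.86 and 3.98 in parental arrays (change 4.14, SE 0.26, adjusted p = 1.86e-06). In all 4 genes the lowest resistant array lay far above the highest parental array.

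**Figure D1:**
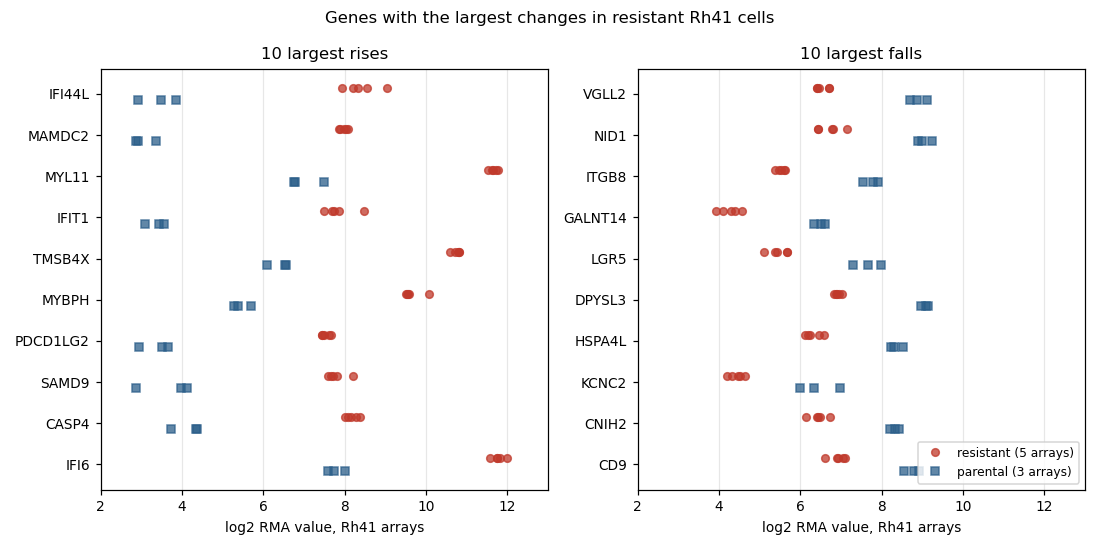
The 10 largest rises (left) and the 10 largest falls (right) among genes past the threshold, as log2 values on each array. Red circles are the 5 resistant and blue squares the 3 parental Rh41 arrays, and for all 20 genes the circles and squares do not overlap.

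The promoters of these 4 genes are shown because each holds the sequence that interferon-activated factors bind. They run 5′ to 3′ on the gene's own strand, from 250 bases before to 50 bases after the RefSeq start in GRCh38.p14, and lie at chr10:89392373-89392672 (plus strand) for IFIT1, chr1:78620198-78620497 (plus strand) for IFI44L, chr1:27672143-27672442 (minus strand) for IFI6 and chr7:93117930-93118229 (minus strand) for SAMD9. Capitals mark each match to GAAANNGAAA, the core of the interferon-stimulated response element (ISRE), on either strand, and in IFIT1 both matches are read on the opposite strand. IFIT1 held 2 matches, IFI44L 2, in repeats of a longer stretch, IFI6 3 and SAMD9 1.
IFIT1: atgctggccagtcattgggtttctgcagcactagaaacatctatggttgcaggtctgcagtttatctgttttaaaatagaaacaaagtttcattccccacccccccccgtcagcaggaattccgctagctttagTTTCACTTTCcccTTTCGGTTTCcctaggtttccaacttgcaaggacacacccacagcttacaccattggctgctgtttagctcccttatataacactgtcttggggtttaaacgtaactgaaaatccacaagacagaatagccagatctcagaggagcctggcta
IFI44L: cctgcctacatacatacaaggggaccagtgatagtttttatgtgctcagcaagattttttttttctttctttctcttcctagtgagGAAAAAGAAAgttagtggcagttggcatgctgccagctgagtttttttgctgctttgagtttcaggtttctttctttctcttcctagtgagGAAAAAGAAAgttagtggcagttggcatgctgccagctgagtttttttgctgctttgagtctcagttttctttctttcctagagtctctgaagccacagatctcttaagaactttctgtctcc
IFI6: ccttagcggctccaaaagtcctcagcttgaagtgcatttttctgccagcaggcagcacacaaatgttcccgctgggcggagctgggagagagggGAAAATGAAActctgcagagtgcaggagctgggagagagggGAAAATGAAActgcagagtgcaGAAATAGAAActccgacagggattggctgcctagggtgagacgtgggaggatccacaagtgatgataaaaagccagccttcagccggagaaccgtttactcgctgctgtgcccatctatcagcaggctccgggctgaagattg
SAMD9: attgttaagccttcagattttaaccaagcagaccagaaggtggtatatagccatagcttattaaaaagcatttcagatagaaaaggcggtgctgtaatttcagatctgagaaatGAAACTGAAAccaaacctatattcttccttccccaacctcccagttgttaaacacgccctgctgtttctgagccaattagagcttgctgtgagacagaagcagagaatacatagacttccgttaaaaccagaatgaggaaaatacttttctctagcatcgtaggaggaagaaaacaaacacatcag

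Promoters were available for 14250 of the 17687 genes, and GAAANNGAAA on either strand was found in 443 of them (3.11%). Among 53 antiviral effectors with a promoter 33 held it (62.3%). That share was 20 of 32 (62.5%) in effectors that rose and 13 of 21 (61.9%) in effectors that were not called, so presence of the letters did not separate the effectors that moved from those that did not. Among all genes that rose 56 of 843 promoters held it (6.64%), and among genes that fell 8 of 419 (1.91%). The pattern TTCNNNGAA of STAT dimer sites (GAS), counted on both strands and apart from any ISRE it may overlap, was found in 12 of 53 antiviral effectors (22.6%), in 8.42% of the genes that rose, in 5.01% of those that fell and in 6.93% of all promoters. A match is a description of letters and not evidence of binding.

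The antiviral effector list held 72 measured genes, of which 41 rose and 0 fell (1 lower at an unadjusted p under 0.05), against 5.69% of all clusters that rose, and the list's median change was 0.89 against -0.03 over all clusters. The mean of the 72 genes was 6.31, 6.37, 6.41, 6.33 and 6.57 in resistant replicates 1 to 5, against 5.13, 5.21 and 5.25 in parental replicates 1 to 3. Past the genes given above, the rises were led by DDX60L at 3.88, IFI44 at 3.66 and IFIT3 at 3.54, the first a relative of the helicase DDX60, which itself rose by 3.17. Abundant effectors rose too. IFITM1, a membrane protein that blocks virus entry, averaged 10.99 in resistant and 8.22 in parental arrays (change 2.76, SE 0.19, adjusted p = 4.09e-06), and ISG15, a ubiquitin-like modifier, 8.03 and 6.03 (change 1.99, SE 0.14, adjusted p = 5.65e-06). Members of the IFITM family are close copies, and probes may be shared between them.

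The response was not even across the effectors. Several classical interferon-induced genes, picked out here after their values were seen, were not called. MX1, which encodes a dynamin-like antiviral GTPase, stood at 3.57, 3.89, 3.53, 3.84 and 3.97 in resistant arrays, against 3.93, 3.93 and 3.98 in parental arrays (change -0.19, SE 0.12, adjusted p = 0.313), all at low signal. MX2 changed by -0.04 (adjusted p = 0.859), IFI35 by 0.01 (adjusted p = 0.975), XAF1 by -0.28 (adjusted p = 0.137) and ISG20 by -0.08 (adjusted p = 0.631), at means above low signal in each case. Of the oligoadenylate synthetases, which make the messenger that activates RNase L, OAS2 and OAS3 rose by 1.36 and 0.83, while OAS1 at 0.48 (adjusted p = 0.0749) and OASL at 0.45 (adjusted p = 0.0398) did not pass both criteria. OAS1 and OAS2 were at low signal in both groups.

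Upstream of these genes no rise was detected among the ligands and receptors, most of which were at low signal. Of 26 interferon ligand and receptor genes measured 0 rose by limma, also at an unadjusted p under 0.05, and 1 fell (3 lower at an unadjusted p under 0.05). Over all clusters 5.69% rose and 3.08% fell, so in a list of this size such counts do not set it apart. The list median was -0.08, and 18 of the 26 genes had both means at low signal. IFNB1, which encodes interferon beta, stood at 3.44, 3.13, 3.38, 3.95 and 3.69 in resistant arrays, against 3.69, 3.72 and 3.37 in parental arrays (change -0.08, SE 0.17, adjusted p = 0.799). The groups overlapped, and at this signal a small change could not be seen. The type I receptor chain IFNAR1 changed by -0.16 (SE 0.14, adjusted p = 0.488). Its partner IFNAR2 was lower in all resistant arrays, at 8.71, 9.08, 8.90, 9.03 and 8.96, against 9.51, 9.45 and 9.44 in parental arrays, but its change of -0.53 (SE 0.10, adjusted p = 0.00475) was under 1.5-fold. The gene that fell was IFNGR2, a chain of the receptor for interferon gamma, which averaged 9.03 in resistant and 9.62 in parental arrays (change -0.59, SE 0.09, adjusted p = 0.000782). It lay at the edge of the fold threshold, and without resistant replicate 2 or 5 or parental replicate 1 or 2 its change was between -0.58 and -0.55 and was no longer called.

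Between receptor and target gene, 6 of 27 JAK-STAT and IRF genes rose (22.2%, against 5.69% of all clusters) and 0 fell. IRF9, the DNA-binding subunit of the interferon-activated complex, stood at 8.65, 8.96, 9.01, 9.06 and 9.08 in resistant arrays, against 5.79, 5.66 and 6.39 in parental arrays (change 3.00, SE 0.17, adjusted p = 7.78e-07). USP18, which removes ISG15 from proteins and restrains the receptor, stood at 6.68, 6.60, 6.82, 6.85 and 7.13 in resistant arrays, against 2.98, 3.68 and 4.24 in parental arrays (change 3.18, SE 0.23, adjusted p = 5.88e-06). The other members that rose were the transcription factors IRF1 and IRF2, each by 1.51, and the kinases JAK1, by 1.20, and JAK2, by 0.71. The parental mean of IRF1 and both means of IRF2 were at low signal. TYK2, the kinase that pairs with JAK1 at the type I receptor, changed by -0.13 (adjusted p = 0.584) and the feedback inhibitor SOCS1 by -0.16 (adjusted p = 0.462).

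Of 24 nucleic acid sensors and adaptors 6 rose (25.0%, against 5.69% of all clusters) and 2 fell (8.33%, against 3.08%). RIGI, a cytosolic sensor of viral RNA, stood at 7.06, 7.45, 7.66, 7.53 and 7.81 in resistant arrays, against 4.88, 4.08 and 5.23 in parental arrays (change 2.77, SE 0.24, adjusted p = 1.85e-05). SAMHD1, which degrades deoxynucleotides, rose by 2.50 (SE 0.17), STING1, the adaptor of cytosolic DNA sensing, by 1.47 (SE 0.11), and the RNA-editing enzyme ADAR by 0.96. DHX58 and IFIH1, both relatives of RIGI, rose by 0.83 and 0.65, IFIH1 between means at low signal and at 0.48, not called, when the arrays were set on the wider scale of the other lines. CGAS, the DNA sensor upstream of STING1, did not pass the test, at 6.75, 6.63, 6.86, 6.46 and 6.85 in resistant arrays, against 6.95, 6.95 and 7.08 in parental arrays (change -0.28, SE 0.11, adjusted p = 0.103). The kinase TBK1 and the adaptor TRAF3, which act downstream of these sensors, fell, at -0.63 (SE 0.10) and -0.62 (SE 0.14). TBK1 was under 1.5-fold without resistant replicate 1 (change -0.58), and TRAF3 without resistant replicate 5 or parental replicate 3 (change -0.54 in each case) and with a replicate block (change -0.50, adjusted p = 0.0715).

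Interferon-induced genes of immune recognition rose beside the antiviral genes. Of 8 guanylate-binding proteins, GTPases that attack intracellular pathogens, 4 rose and 0 fell, and GBP1 stood at 7.78, 7.81, 7.60, 8.10 and 8.44 in resistant arrays, against 4.28, 4.55 and 4.37 in parental arrays (change 3.55, SE 0.17, adjusted p = 2.78e-07). Of 19 genes of MHC class I presentation 9 rose and 0 fell, with a median of 0.46, and the list mean was 7.11 to 7.29 in resistant and 6.35 to 6.52 in parental arrays. B2M, the invariant class I chain, stood at 10.13, 10.19, 10.09, 10.04 and 10.24 in resistant arrays, against 8.53, 8.88 and 8.67 in parental arrays (change 1.45, SE 0.10, adjusted p = 5.65e-06). The peptide-trimming enzymes ERAP1 and ERAP2 rose by 1.42 and 1.43, ERAP2 at low signal in both groups, and PSMB9, a catalytic subunit of the immunoproteasome, by 2.09. In the list of 36 proteasome genes PSMB9 was the single member that rose, and 0 fell (also 0 lower at an unadjusted p under 0.05). That rise was 2.78% of the list, against 5.69% of all clusters. Of 15 class II and professional presentation genes only CTSS, a lysosomal protease, rose, at 1.57 (SE 0.13), and 13 of the 15 had both means at low signal. The single rise was 6.67% of that list, near the 5.69% of all clusters.

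Most cytokine genes were at low signal and did not pass the test, but a few rose far. Of 49 cytokine and chemokine genes 5 rose (10.2%, against 5.69% of all clusters) and 1 fell (2.04%, against 3.08%). In 27 of the 49 both means were at low signal. IL32, a pro-inflammatory cytokine gene, stood at 9.72, 9.68, 9.76, 9.80 and 9.96 in resistant arrays, against 6.71, 6.42 and 6.64 in parental arrays (change 3.19, SE 0.11, adjusted p = 2.24e-08). The macrophage growth factor gene CSF1 stood at 7.61, 7.49, 7.72, 7.50 and 7.62 in resistant arrays, against 4.56, 4.57 and 3.27 in parental arrays (change 3.45, SE 0.25, adjusted p = 5.79e-06). The monocyte attractant gene CCL2 stood at 6.96, 7.18, 7.13, 7.04 and 7.29, against 4.79, 4.59 and 4.63 in parental arrays (change 2.45, SE 0.10, adjusted p = 1.03e-07). In each of these genes the groups lay far apart. CXCL10, a chemokine induced by interferon gamma, rose by 0.89 (SE 0.19, adjusted p = 0.00708) between means of 3.71 in resistant and 2.81 in parental arrays, both at low signal, and TGFB1 fell by 0.68 (SE 0.11). Of 34 cytokine and chemokine receptor genes 5 rose (14.7%) and 2 fell (5.88%), against 5.69% and 3.08% of all clusters. The list median was 0.12. IL6ST, the shared signalling chain gp130, rose by 1.17, LIFR, which pairs with it, by 0.85 and OSMR, a receptor of oncostatin M at low signal in both groups, by 0.65. The other rises were IL7R, a lymphocyte growth factor receptor at low signal in both groups, by 1.57 (SE 0.25) and IL13RA1, a receptor chain for interleukin 13, by 1.09 (SE 0.17). IL17RD fell by 0.68 (SE 0.13) and IL21R, the receptor of interleukin 21, fell by 0.60 (SE 0.12), and IL21R lost its call in 2 alternatives that left out an array (resistant replicate 3 or parental replicate 2).

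PDCD1LG2 stood at 7.44, 7.66, 7.50, 7.63 and 7.43 in resistant arrays, against 3.52, 2.95 and 3.67 in parental arrays (change 4.15, SE 0.15, adjusted p = 3.18e-08). The neighbouring CD274, which encodes PD-L1, was at low signal in both groups, at 4.75, 4.41, 5.34, 4.37 and 4.44 in resistant arrays, against 3.27, 3.01 and 2.71 in parental arrays (change 1.66, SE 0.22, adjusted p = 0.00035). Only resistant replicate 3 exceeded 5 for CD274. Of 29 ligands of immune checkpoints and natural killer receptors the other member that rose was ULBP1, a stress ligand of NKG2D, at 0.62 (SE 0.13, adjusted p = 0.00575). ULBP1 was not called without parental replicate 1 (0.51) or with a replicate block (0.55, adjusted p = 0.0555). The 3 rises were 10.3% of the list, against 5.69% of all clusters.

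CASP4 stood at 8.16, 8.08, 8.38, 8.27 and 8.01 in resistant arrays, against 4.34, 4.36 and 3.72 in parental arrays (change 4.04, SE 0.15, adjusted p = 4.37e-08). Of 21 death receptor and inflammatory caspase genes the other that rose was CASP8, the initiator caspase of death receptors, at 1.43 (SE 0.17, adjusted p = 0.000173). These 2 rises were 9.52% of the list, against 5.69% of all clusters. Of 16 BCL2 family genes 3 rose (18.75%, against 5.69% of all clusters) and 0 fell. These were BCL2L1, which encodes the survival protein BCL-XL and averaged 7.31 in resistant and 6.12 in parental arrays (change 1.20, SE 0.09, adjusted p = 9e-06), and the death-promoting BCL2L11 and PMAIP1, at 0.96 and 0.66. PMAIP1 was not called without parental replicate 1 (0.51). Of 23 NF-kB subunit and feedback genes 4 rose (17.4%, against 5.69% of all clusters) and 0 fell. The largest of these rises was the subunit gene NFKB2 at 0.91 (SE 0.13).

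**Figure D2:**
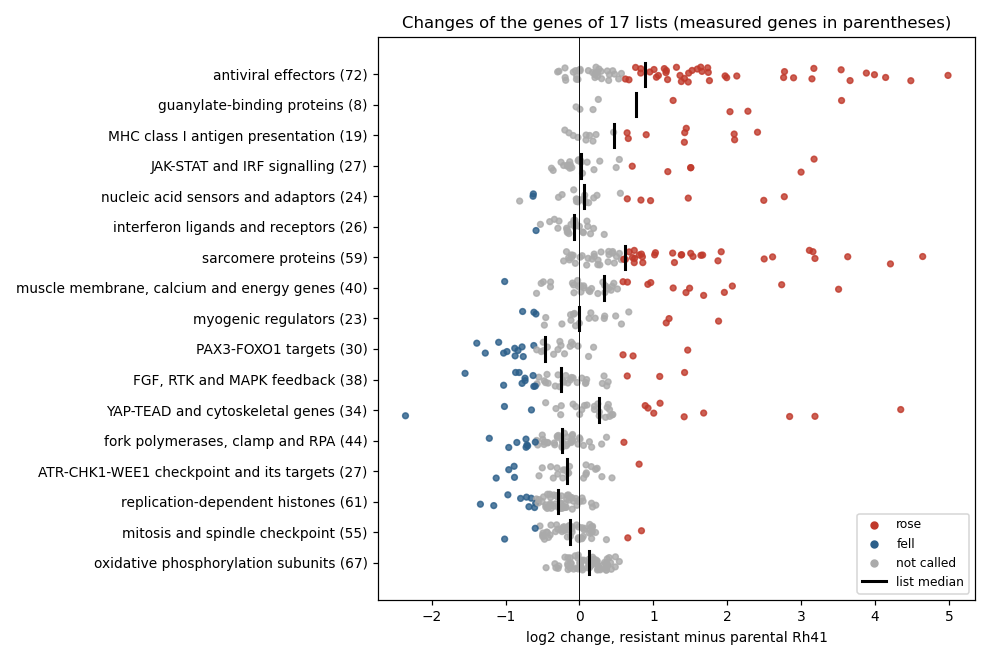
Log2 change, resistant minus parental Rh41, of each measured gene of 17 gene lists, with genes that rose in red, genes that fell in blue, genes not called in grey and the list median as a black bar. Points are spread vertically for legibility. Antiviral effectors (median 0.89) and sarcomere proteins (median 0.62) lay to the right of 0 and PAX3-FOXO1 targets (median -0.46) to the left, with no oxidative phosphorylation gene called.

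The second group of large rises encoded the contractile apparatus of muscle. Of 59 sarcomere genes 31 rose and 0 fell (also 0 lower at an unadjusted p under 0.05), against 5.69% of all clusters that rose, with a median change of 0.62, and the list mean was 6.62, 6.64, 6.58, 6.48 and 6.64 in resistant replicates 1 to 5, against 5.52, 5.64 and 5.66 in parental replicates 1 to 3. MYL11, the fast-muscle regulatory myosin light chain, stood at 11.72, 11.77, 11.62, 11.52 and 11.65 in resistant arrays, against 6.76, 6.79 and 7.48 in parental arrays (change 4.65, SE 0.16, adjusted p = 2.37e-08). TNNI1, the slow-muscle troponin I, stood at 11.18, 10.95, 10.99, 11.06 and 11.08 in resistant arrays, against 7.31, 7.50 and 7.46 in parental arrays (change 3.63, SE 0.10, adjusted p = 5.63e-09). Both groups were above low signal for these genes and far apart.

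Isoforms of fast and of slow fibres were both among the genes that rose. TNNC1, the slow and cardiac troponin C, averaged 8.96 in resistant and 5.80 in parental arrays (change 3.16, SE 0.14), and MYL1, the fast-muscle essential light chain, 9.27 and 6.16 (change 3.11, SE 0.15). The fast troponin C and T genes TNNC2 and TNNT3 rose by 1.38 and 1.02, tropomyosin TPM1 by 2.61, the perinatal myosin heavy chain MYH8 by 1.92 and titin (TTN), already at 9.42 in parental arrays, by 1.64 (SE 0.09). ANKRD1, a titin-associated repeat protein and target of YAP, rose by 3.19 (SE 0.17), with a parental mean at low signal. Skeletal alpha-actin ACTA1 at 0.04 (adjusted p = 0.821), nebulin NEB at -0.09 (adjusted p = 0.638) and slow troponin T TNNT1 at 0.25 (adjusted p = 0.131) did not pass the test. These members were named after their values were seen. Of the 59 genes 14 had both means at low signal.

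MYBPH, a myosin-binding protein of the thick filament, stood at 10.09, 9.56, 9.54, 9.59 and 9.52 in resistant arrays, against 5.29, 5.69 and 5.37 in parental arrays (change 4.21, SE 0.15, adjusted p = 2.63e-08), with resistant replicate 1 above the other 4. Its promoter, at chr1:203175777-203176076 (minus strand) in GRCh38.p14 from RefSeq, is shown for its 2 copies of CAGCTG, an E-box of the kind that myogenic factors bind, in capitals.
MYBPH: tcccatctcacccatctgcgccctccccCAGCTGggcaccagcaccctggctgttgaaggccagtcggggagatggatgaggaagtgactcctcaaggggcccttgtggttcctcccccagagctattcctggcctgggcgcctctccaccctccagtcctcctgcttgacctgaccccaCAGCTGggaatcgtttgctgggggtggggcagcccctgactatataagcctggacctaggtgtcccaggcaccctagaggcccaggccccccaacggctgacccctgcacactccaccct

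CAGCTG, which reads the same on both strands, was found in 16 of 41 promoters of the sarcomere list (39.0%), against 2522 of all 14250 (17.7%). It was in 7 of 19 sarcomere genes that rose (36.8%) and in 9 of 22 that were not called (40.9%). Among all genes that rose it was in 20.4% and among genes that fell in 15.3%. No promoter of the 41 held GAAANNGAAA or TTCNNNGAA.

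Genes of muscle membrane, calcium handling and energy moved the same way in smaller number, with 12 of 40 rising and 1 falling. These were 30.0% and 2.5% of the list, against 5.69% and 3.08% of all clusters. CASQ2, the calcium store protein calsequestrin, stood at 9.07, 9.01, 8.87, 8.65 and 9.15 in resistant arrays, against 5.57, 5.03 and 5.73 in parental arrays (change 3.51, SE 0.17, adjusted p = 2.13e-07). SRL, which encodes sarcalumenin of the sarcoplasmic reticulum, rose by 2.74 (SE 0.11), SLN, which encodes the calcium pump inhibitor sarcolipin, by 2.07 (SE 0.14), and CKM, muscle creatine kinase, by 0.97. The exception was DMD, the dystrophin gene, at 6.43, 7.04, 6.85, 6.79 and 7.12 in resistant arrays, against 7.99, 7.62 and 7.96 in parental arrays (change -1.01, SE 0.16, adjusted p = 0.00113).

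Myogenic regulators, transcription factors of the lineage among them, changed in both directions, while 0 sarcomere genes fell. Of 23 measured 3 rose and 3 fell, both larger shares than the 5.69% and 3.08% of all clusters. The list mean was higher in every resistant array, at 7.56 to 7.64, against 7.40 to 7.51 in parental arrays. MEF2C, a cofactor of the myogenic factors, stood at 8.86, 9.18, 9.01, 8.90 and 9.30 in resistant arrays, against 7.16, 6.91 and 7.43 in parental arrays (change 1.88, SE 0.14, adjusted p = 7.13e-06). MSTN, the growth inhibitor myostatin, rose by 1.21 and MYMK, the fusion protein myomaker, by 1.17. MYOG stood at 11.04, 10.90, 10.91, 10.97 and 10.95 in resistant arrays, against 11.00, 10.97 and 11.06 in parental arrays (change -0.05, SE 0.09, adjusted p = 0.719), and the groups overlapped. MYOD1 was lower in every resistant array, at 7.36, 7.20, 7.20, 7.31 and 7.34, against 7.79, 8.12 and 7.79 in parental arrays (change -0.62, SE 0.11, adjusted p = 0.00221). Without parental replicate 2 its change was -0.51, under the fold threshold. EYA2 and EYA1, coactivators of homeobox factors in the muscle lineage, fell, at -0.77 and -0.59, and EYA1, at the edge of the threshold, was called or not depending on which array was left out.

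**Figure D3:**
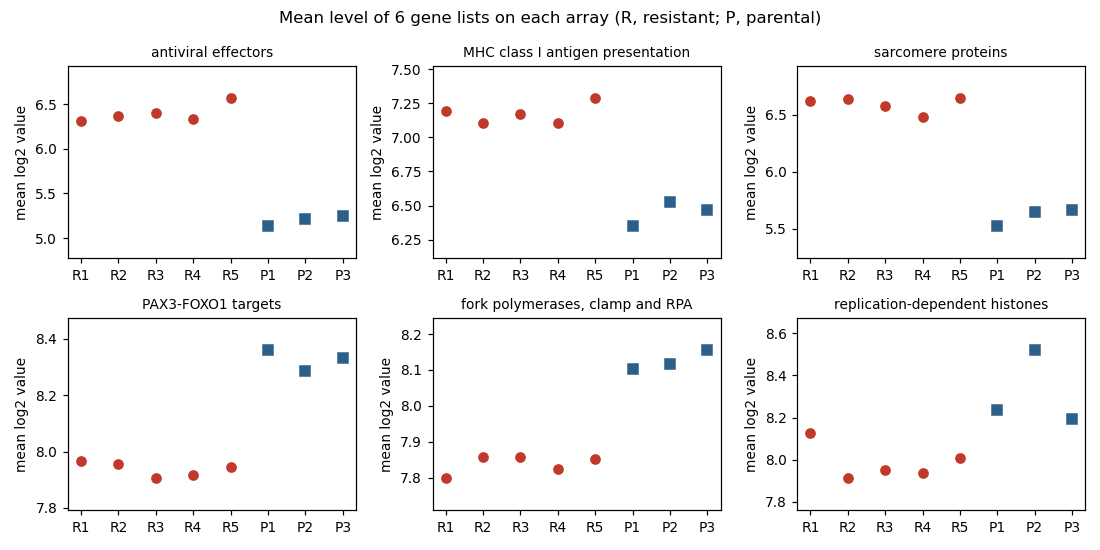
Mean log2 value of the measured genes of 6 lists on each array, with the 5 resistant arrays (R, red circles) to the left of the 3 parental arrays (P, blue squares) and an axis of its own for each list. The resistant arrays lie above the parental arrays for antiviral effectors, MHC class I and sarcomere genes and below them for PAX3-FOXO1 targets, fork genes and histones.

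Targets of the PAX3-FOXO1 fusion, the factor that keeps these tumours in an undifferentiated state, were lower. The list holds genes known as targets of the fusion, and of 30 measured 11 fell and 3 rose, against 3.08% of all clusters that fell, with a median of -0.46. The list mean was 7.97, 7.95, 7.91, 7.92 and 7.95 in resistant arrays, against 8.36, 8.29 and 8.33 in parental arrays. TFAP2B, a diagnostic marker of fusion-positive tumours, stood at 6.65, 6.88, 6.76, 6.62 and 6.78 in resistant arrays, against 8.23, 7.99 and 8.17 in parental arrays (change -1.39, SE 0.10, adjusted p = 5.99e-06). The neuronal factor POU4F1 changed by -1.27 (SE 0.11), the GABA transaminase gene ABAT by -1.09 (SE 0.10), the receptor kinases MET and ALK by -1.03 and -0.88, the marker NOS1 by -0.87, the chromatin protein HMGA2 by -0.76 and the growth factor FGF8 by -0.62.

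FGFR4, the receptor kinase that the fusion induces, stood at 9.60, 9.42, 9.50, 9.64 and 9.51 in resistant arrays, against 10.38, 10.40 and 10.15 in parental arrays (change -0.78, SE 0.10, adjusted p = 0.000342). The PAX3 cluster was lower in all resistant arrays, at 7.86, 8.13, 7.86, 8.13 and 8.17, against 8.65, 8.42 and 8.39 in parental arrays, and its change of -0.46 (SE 0.12, adjusted p = 0.0172) was under 1.5-fold. A cluster of this kind does not tell the fusion transcript from the intact gene. MYCN, another target, did not pass the test at -0.25 (SE 0.12, adjusted p = 0.176). The members that rose were RASSF4, at 1.47, PODXL, at 0.73, and DCX, at 0.59, which lost its call without resistant replicate 1 or 3 or parental replicate 2.

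Receptor kinase signalling genes were lower in the main, with 10 of 38 genes of the FGF, receptor kinase and MAPK feedback list falling and 3 rising. These were 26.3% and 7.89% of the list, against 3.08% and 5.69% of all clusters. PDGFRA, a receptor for platelet-derived growth factor, stood at 4.98, 4.97, 4.69, 4.79 and 4.54 in resistant arrays, against 6.70, 5.97 and 6.36 in parental arrays (change -1.55, SE 0.16, adjusted p = 8.63e-05), while its relative PDGFRB averaged 6.50 and 5.42 and rose by 1.09 (SE 0.13, adjusted p = 0.00025). The MAPK-induced genes ETV5, SPRED1, SPRY2 and SPRY1 fell, at -0.86, -0.74, -0.63 and -0.60, as did MYC at -0.74 (SE 0.09). DUSP5, a nuclear phosphatase of ERK, went against them and rose by 1.42 (SE 0.12). The immediate-early gene EGR1 was uneven among the resistant arrays, at 6.94, 7.91, 7.93, 7.86 and 6.89, against 8.29, 8.18 and 8.50 in parental arrays (change -0.82, SE 0.26, adjusted p = 0.0458), and it lost its call without resistant replicate 1 or 5, among other settings.

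The largest falls were smaller than the largest rises and shared no single list. VGLL2, a muscle cofactor of TEAD factors, stood at 6.40, 6.40, 6.70, 6.46 and 6.70 in resistant arrays, against 9.11, 8.87 and 8.69 in parental arrays (change -2.35, SE 0.13, adjusted p = 5.73e-07). NID1, the gene of nidogen in basement membranes, stood at 6.43, 7.15, 6.42, 6.78 and 6.80 in resistant arrays, against 9.23, 8.89 and 8.99 in parental arrays (change -2.32, SE 0.17, adjusted p = 5.22e-06). ITGB8, an integrin chain that activates latent TGF-beta, stood at 5.61, 5.59, 5.47, 5.53 and 5.37 in resistant arrays, against 7.91, 7.79 and 7.53 in parental arrays (change -2.23, SE 0.11, adjusted p = 3.15e-07). All 3 were above low signal in both groups.

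LGR5, a receptor for R-spondins that amplifies Wnt signals, stood at 5.10, 5.66, 5.68, 5.37 and 5.43 in resistant arrays, against 7.97, 7.28 and 7.66 in parental arrays (change -2.19, SE 0.17, adjusted p = 9.19e-06). Its relative LGR4 rose by 1.04, and the secreted Wnt inhibitor DKK1 rose by 2.02 (SE 0.17) to a mean of 5.50, against 3.48 at low signal in parental arrays. Of 60 genes of Notch, Wnt, Hedgehog and BMP signalling 8 rose (13.3%) and 5 fell (8.33%), against 5.69% and 3.08% of all clusters. Among the falls were ID3 and ID1, inhibitors of myogenic factors that BMP signals induce, at -1.37 and -0.71. The related ID2 rose by 1.11. GLI3, a Hedgehog effector, fell by 1.25 (SE 0.10) and HHIP, a Hedgehog inhibitor, changed by -1.01.

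DPYSL3, which encodes a microtubule-associated protein of growing axons, stood at 7.03, 6.83, 6.87, 6.89 and 6.96 in resistant arrays, against 9.13, 9.08 and 8.98 in parental arrays (change -2.15, SE 0.09, adjusted p = 1.14e-07). Of the remaining large falls GALNT14, an enzyme that starts O-glycan chains, changed by -2.22 (SE 0.14), HSPA4L, a chaperone of the HSP110 kind, by -2.03 (SE 0.13), the potassium channel KCNC2 by -2.0 (SE 0.19), CNIH2, an auxiliary protein of AMPA receptors, by -1.88 (SE 0.13) and the tetraspanin CD9 by -1.83 (SE 0.13). The resistant means of GALNT14 and KCNC2 were at low signal.

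TMSB4X, which sequesters actin monomers, stood at 10.81, 10.59, 10.79, 10.81 and 10.71 in resistant arrays, against 6.55, 6.10 and 6.52 in parental arrays (change 4.35, SE 0.12, adjusted p = 7.35e-09). In the list of YAP-TEAD targets and cytoskeletal genes 9 of 34 rose (26.5%, against 5.69% of all clusters) and 3 fell (8.82%, against 3.08%). LMO7, a junction protein that links actin to emerin, stood at 8.31, 8.04, 8.35, 8.22 and 8.14 in resistant arrays, against 5.47, 5.21 and 5.43 in parental arrays (change 2.85, SE 0.11, adjusted p = 4.37e-08), the YAP target CCN1 rose by 1.68 and the actin-bundling genes TAGLN and TAGLN2 by 1.42 and 1.09. The falls besides VGLL2 were CAV1, the caveolar coat protein, at -1.02 and the transcription factor TEAD2 at -0.65. MAMDC2 stood at 8.09, 7.88, 8.04, 7.97 and 7.86 in resistant arrays, against 2.91, 3.37 and 2.87 in parental arrays (change 4.92, SE 0.13, adjusted p = 5.63e-09), low signal in all parental arrays.

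Of 44 integrin, laminin and basement membrane genes 7 rose (15.9%, against 5.69% of all clusters) and 3 fell (6.82%, against 3.08%). ITGA3 and ITGA6, integrin chains that bind laminin, rose by 1.77 (SE 0.14) and 1.59 (SE 0.10), while the laminin chain LAMA1 fell by 1.07 (SE 0.11). Of 41 collagen chains 3 rose (7.32%, against 5.69% of all clusters) and 0 fell (6 lower at an unadjusted p under 0.05), with a median of -0.08. The largest of the 3 rises was COL19A1 at 2.68 (SE 0.25), with a mean of 6.16 in resistant arrays, against 3.48 at low signal in parental arrays. S100A10, a partner of annexin A2, rose by 2.24 (SE 0.16) to 9.55, against 7.31 in parental arrays.

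Of the 14 endothelial markers ENG, the TGF-beta coreceptor endoglin, stood at 10.17, 9.84, 10.01, 9.91 and 9.73 in resistant arrays, against 7.37, 7.53 and 7.84 in parental arrays (change 2.35, SE 0.13, adjusted p = 9.84e-07). TEK, the angiopoietin receptor, rose by 1.71 (SE 0.21), its relative TIE1 by 0.83 and the VEGF receptor FLT1 by 0.78. These 4 rises were 28.6% of the list, against 5.69% of all clusters, and 0 members fell. The list mean was 5.72 to 5.83 in resistant and 5.32 to 5.42 in parental arrays. Other endothelial markers, named after their values were seen, did not pass the test. PECAM1 averaged 4.92 in resistant and 5.07 in parental arrays (change -0.15, adjusted p = 0.666), CDH5 5.2 and 5.12 (change 0.08, adjusted p = 0.789) and VWF 6.05 and 6.03 (change 0.03, adjusted p = 0.878). Of 13 fibroblast markers 2 rose (15.4%) and 1 fell (7.69%), against 5.69% and 3.08% of all clusters. Their list mean was 4.72 to 4.86 in resistant and 4.76 to 4.82 in parental arrays.

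The target of the drug rose. CHEK1, which encodes CHK1, stood at 8.76, 8.56, 8.70, 8.55 and 8.50 in resistant arrays, against 7.73, 7.54 and 8.15 in parental arrays (change 0.81, SE 0.14, adjusted p = 0.00197). Its pathway list held 27 genes, of which CHEK1 alone rose (3.7%, against 5.69% of all clusters) and 4 fell (14.8%, against 3.08%). CDK2, which drives S phase, stood at 9.16, 8.96, 9.01, 8.99 and 8.99 in resistant arrays, against 9.99, 9.81 and 9.91 in parental arrays (change -0.88, SE 0.09, adjusted p = 9.14e-05). Its partners CCNE2, a cyclin E, and CCNA2, cyclin A, fell, at -1.13 (SE 0.10) and -0.88 (SE 0.10), as did TIMELESS, a fork protection protein, at -0.96 (SE 0.12). CCNE1, the other cyclin E, was lower in every resistant array but under 1.5-fold (change -0.39, SE 0.09, adjusted p = 0.0119).

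Other genes of the checkpoint did not pass the test. WEE1, the kinase that inhibits CDKs, changed by 0.09 (SE 0.10, adjusted p = 0.568), CDC25A, the phosphatase that activates them, by -0.15 (SE 0.12, adjusted p = 0.426), RPA2, a subunit of the single-strand binding complex, by -0.10 (SE 0.09, adjusted p = 0.50), and MCM2, a helicase subunit, by -0.30 (SE 0.11, adjusted p = 0.0788). ATR was at low signal in both groups and changed by -0.20 (SE 0.24, adjusted p = 0.612). CDKN1A, which encodes the CDK inhibitor p21, rose by 1.07 (SE 0.11) and CCND1, cyclin D1, by 1.06 (SE 0.10), while CDK4, the partner of CCND1, fell by 0.59 (SE 0.10).

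Of 44 genes of fork polymerases, clamp and single-strand binding proteins 8 fell (18.2%, against 3.08% of all clusters) and 1 rose. Of the 44, 23 had every resistant array below every parental array, against 12.6% of all clusters, and the list median was -0.24. FEN1, the flap endonuclease of Okazaki fragments, stood at 8.50, 8.52, 8.56, 8.46 and 8.47 in resistant arrays, against 9.60, 9.77 and 9.81 in parental arrays (change -1.22, SE 0.09, adjusted p = 6.6e-06). PRIM1, the catalytic subunit of primase, stood at 7.67, 7.90, 8.10, 7.98 and 7.96 in resistant arrays, against 8.80, 8.78 and 8.72 in parental arrays (change -0.85, SE 0.11, adjusted p = 0.000322). The ligase LIG1 fell by 0.72, the polymerase delta subunits POLD3 and POLD2 were lower at -0.71 and -0.70, but the sliding clamp PCNA at -0.33 (SE 0.09, adjusted p = 0.0201) was under 1.5-fold.

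The mitosis list had 2 rises and 2 falls among 55 genes, 3.64% each, against 5.69% and 3.08% of all clusters. Its median was -0.12. In 19 of the 55 every resistant array was below every parental array, against 12.6% of all clusters, and at an unadjusted p under 0.05, 18 were lower and 4 higher. The list mean was 8.52 to 8.57 in resistant arrays and 8.65 to 8.66 in parental arrays. KIF20A, a kinesin of cytokinesis, rose by 0.84 (SE 0.12) and MAD2L1, a spindle checkpoint protein, fell by 1.01 (SE 0.12). Of 29 origin genes 4 fell (13.8%, against 3.08% of all clusters) and 1 rose (3.45%, against 5.69%). The rise was ORC4 at 0.85 (SE 0.15). Of 61 replication-dependent histone genes 9 fell (14.75%, against 3.08% of all clusters) and 0 rose (1 higher at an unadjusted p under 0.05). The median of this list was -0.29. H4C1 stood at 7.18, 6.93, 6.95, 6.67 and 6.82 in resistant arrays, against 8.20, 8.70 and 7.86 in parental arrays (change -1.34, SE 0.18, adjusted p = 0.000365). The parental arrays varied here, since the mean of the 61 genes was 8.13, 7.91, 7.95, 7.94 and 8.01 in resistant replicates 1 to 5, against 8.23, 8.52 and 8.19 in parental replicates 1 to 3. Histone genes are close copies of each other, and probes may be shared between them.

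Of 38 genes of ABC drug transporters and detoxification 6 rose (15.8%, against 5.69% of all clusters) and 1 fell. In 15 of them every resistant array was above every parental array, against 13.6% of all clusters, and 20 were higher and 4 lower at an unadjusted p under 0.05. The list mean was 5.77 to 5.84 in resistant arrays and 5.43 to 5.60 in parental arrays. ABCB1, the multidrug transporter, stood at 4.35, 4.48, 4.51, 4.27 and 4.42 in resistant arrays, against 4.06, 4.53 and 4.32 in parental arrays (change 0.11, SE 0.12, adjusted p = 0.578), at low signal in both groups. ABCC4, an exporter of nucleotides and organic anions, fell by 1.22 (SE 0.17), and the 6 that rose were AKR1C1, AKR1C3, MGST2, GCLM, SLC7A11 and CYP1B1, none of them an ABC transporter. AKR1C3, a ketone-reducing enzyme, stood at 7.06, 7.47, 7.35, 7.26 and 7.32 in resistant arrays, against 5.24, 5.27 and 5.05 in parental arrays (change 2.11, SE 0.11, adjusted p = 5.67e-07), the cystine importer SLC7A11 rose by 1.68 (SE 0.20) and GCLM, a subunit of the enzyme that starts glutathione synthesis, by 1.24 (SE 0.13). AKR1C family members are close copies. The glucose transporter SLC2A3 rose by 2.29 (SE 0.14). SLFN11, whose product blocks stressed forks, was at low signal (change 0.18, SE 0.12, adjusted p = 0.314), as were all 6 Schlafen genes measured, with 0 called by limma (1 lower at an unadjusted p under 0.05).

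Lists of basal cell functions held few calls. Of 67 oxidative phosphorylation subunits and of 52 cytosolic ribosomal proteins 0 rose and 0 fell, with median changes of 0.14 and -0.10, and changes ran from -0.45 to 0.54 in the first and from -0.51 to 0.43 in the second. At an unadjusted p under 0.05 the first list had 18 genes higher and 5 lower and the second 1 higher and 11 lower. Of 27 endogenous retroviral envelope and cancer-testis genes 1 fell, ERVW-1 at -0.71 (SE 0.11). Of 23 HOX genes 1 fell, HOXC10 at -0.62 (SE 0.17, adjusted p = 0.0276). HOXC10 was under the threshold with a replicate block and without several of the arrays. The falls were 3.7% and 4.35% of these lists, near the 3.08% of all clusters.

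The 5 resistant arrays were alike, with a median SD of 0.15 over clusters against 0.18 in the 3 parental arrays. Among clusters with a mean of at least 5, those that varied most over the resistant arrays included EGR1, given above, and ZNF334, at 4.93, 5.43, 5.47, 3.95 and 5.22 in resistant replicates 1 to 5. SORBS3, an adaptor of cell adhesions, stood at 6.06, 5.58, 5.67, 4.71 and 4.84, and FBXO32, the muscle atrophy ubiquitin ligase atrogin, at 6.26, 5.46, 5.08, 5.04 and 4.99. APOBEC3A, a cytidine deaminase, stood at 6.10, 4.76, 5.83, 5.63 and 5.38, against 4.83, 5.05 and 5.64 in parental arrays. No single array was the extreme in all of these. For the antiviral list as a whole resistant replicate 5 was highest (6.57), and resistant replicate 1 lowest (6.31).

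The other rhabdomyosarcoma line, SJCRH30, was used to ask whether the largest Rh41 changes were shared. Per the study, its resistant line was grown from a xenograft tumour that regrew after prexasertib. Its parental line came from a tumour of a vehicle-treated animal, presumed sensitive. The 3 resistant and 3 parental arrays are thus not separate derivations of resistance, and errors and p-values of the difference do not measure the spread between such derivations. SJCRH30 values were first mapped by rank to the scale of the Rh41 arrays. The Rh41 change differed from the SJCRH30 change at an adjusted p under 0.05 in 3729 of 17709 clusters (21.1%). It differed in all 10 of the largest Rh41 rises and all 10 of the largest falls. These genes were picked for the size of their Rh41 change, which favours a difference from another line. MYL11 changed by 4.65 in Rh41 and -0.98 in SJCRH30 (Rh41 minus SJCRH30 5.63, SE 0.25, adjusted p = 1.18e-08), IFI6 by 3.99 and -0.44 (4.43, SE 0.23, adjusted p = 4.01e-08) and IFIT1 by 4.49 and -0.01 (4.50, SE 0.37, adjusted p = 2.55e-06). IFI44L was the rise most alike in the lines, at 4.99 in Rh41 and 3.15 in SJCRH30 (difference 1.84, SE 0.36, adjusted p = 0.00226).

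**Figure D4:**
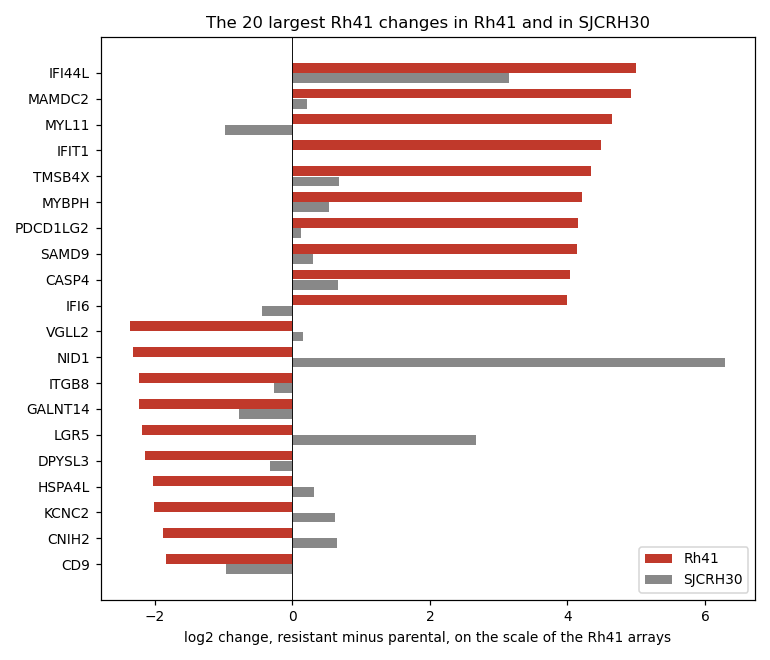
Log2 change, resistant minus parental, of the 10 largest rises and 10 largest falls of Rh41 (red bars) beside the change of the same gene in SJCRH30 (grey bars), both on the scale of the Rh41 arrays. Of the 20 genes, IFI44L alone has a grey bar above 3 among the rises, and NID1 and LGR5 have long bars in opposite directions.

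NID1 and LGR5 moved in opposite directions in these lines. NID1 stood at 10.87, 11.31 and 10.98 in resistant SJCRH30 arrays, against 2.90, 2.72 and 2.98 in parental SJCRH30 arrays on their own wider scale, and the change was -2.32 in Rh41 and, after mapping, 6.30 in SJCRH30 (Rh41 minus SJCRH30 -8.62, SE 0.24, adjusted p = 1.35e-10). LGR5 stood at 9.20, 9.20 and 8.75 in resistant SJCRH30 arrays, against 5.36, 4.30 and 4.23 in parental ones, with changes of -2.19 in Rh41 and, after mapping, 2.67 in SJCRH30 (Rh41 minus SJCRH30 -4.86, SE 0.35, adjusted p = 8.86e-07). VGLL2, HSPA4L, KCNC2 and CNIH2 had SJCRH30 changes of 0.16 to 0.65, with a sign opposite to that in Rh41. MAMDC2 was at 8.12, 7.75 and 8.39 in resistant and 7.78, 7.87 and 7.34 in parental SJCRH30 arrays, so that parental SJCRH30 cells already expressed it.

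Genes that moved were not spread evenly along the chromosomes. This was noticed after the data were seen and is given as a description with no test. The 12253 genes with a mean of at least 5 were placed in RefSeq order, and the median change of each run of 41 neighbouring genes was taken, which gave 11333 runs with a median of -0.02 and a range of -0.27 to 0.25 between the 5th and the 95th percentiles. The lowest run, on chromosome 12 from ATP23 to ATXN7L3B, had 23 of 41 genes that fell and 40 with a change below 0, with a median of -0.63. It held LGR5, TBK1, HMGA2 and MDM2, the p53 ubiquitin ligase, which fell by 0.76 (SE 0.13). Taken for each array as the median over the 41 genes of its value minus the parental mean, the run lay between -0.70 and -0.59 in the resistant arrays, against -0.03 to 0.04 in the parental arrays.

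On chromosome 4 the run from EPHA5 to THAP9-AS1 had 21 of 41 genes that fell and a median of -0.59, and the run from MAD2L1 to GAB1, which holds CCNA2 and HSPA4L, had 12 that fell and a median of -0.41. A further run of chromosome 12, from ANKRD52 to CTDSP2, held PRIM1, TIMELESS and CDK4, with 12 of 41 falling, 0 rising and a median of -0.43. The highest run lay on chromosome 11 from CBL to FOXRED1, with 19 of 41 genes that rose, 0 that fell and a median of 0.51, and it held CHEK1. Runs on chromosome 5 from JMY to GIN1, which holds MEF2C and ERAP1, and from MTMR12 to MOCS2 had medians of 0.42 each, and that on chromosome 11 from CASP4 to REXO2 had 13 that rose and a median of 0.37. In each of these runs all 5 resistant arrays lay beyond all 3 parental arrays. The runs, including the lowest one above, were picked for the most extreme medians of the same change. That choice favours such a separation, so it adds no support of its own.

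By whole chromosome, 15.4% of 403 genes on chromosome 4 fell and 15.1% of 516 genes on chromosome 5 rose, against 4.06% and 6.91% of all 12253 genes. Around single genes, the 40 nearest neighbours of CHEK1 had 16 rises, 0 falls and a median of 0.35, beside its own change of 0.81. The neighbours of CDK2 had a median of -0.34, those of PRIM1 -0.41, those of TIMELESS -0.30 and those of CCNA2 -0.31, beside changes of -0.88, -0.85, -0.96 and -0.88 in the genes themselves. FEN1 and CCNE2 lay among neighbours with medians of -0.10 and -0.05, near the median of all runs, as did MYL11 at 0.01 and TMSB4X at -0.06. CASP4 had a neighbour median of 0.38 beside its own 4.04, and NID1, which fell by 2.32, had a neighbour median of 0.23. The part of neighbouring genes in the change of any one gene was not tested.

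**Figure D5:**
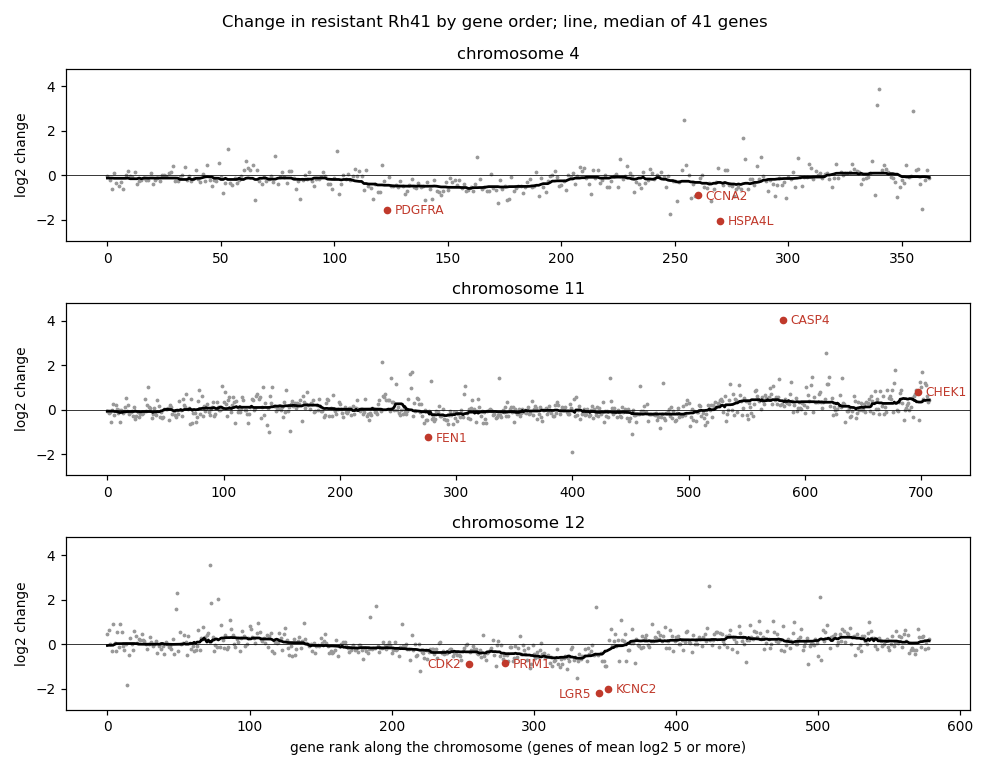
Log2 change, resistant minus parental Rh41, of genes with a mean of at least 5 in RefSeq order along chromosomes 4, 11 and 12. Grey points are genes, red points are named genes and the black line is the median of 41 neighbouring genes, which falls to -0.63 on chromosome 12 and reaches 0.51 on chromosome 11.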

How the data were processed

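RNA of cultured cells was labelled and hybridized to Clariom S arrays by the submitters. Values were deposited by the authors as log2 values from RMA, which corrects background, normalizes by quantiles and summarizes probes (version not stated). The 8 Rh41 arrays share 1 distribution and the other 12 arrays another, so levels were compared within Rh41, and SJCRH30 values were mapped by rank to the Rh41 distribution before the difference between the lines was tested. Groups follow the sample titles, which call the replicates biological, and p-values measure the spread between those cultures. In SJCRH30 this is not the spread between separate derivations of resistance. Probes were named by the platform annotation, and 3739 clusters with no symbol or several were left out. limma 3.58.1 in R 4.3.3 was fitted to 17709 clusters with empirical Bayes variances, as two-sided tests adjusted by Benjamini-Hochberg over these clusters, after the script was tested on simulated data. A call needed an adjusted p below 0.05 and a change above 1.5-fold. Members and the 47 gene lists (1482 genes measured, some list members not analysed here) were chosen with earlier results of these data known. Genes were named by rule: the 10 largest rises and falls with groups apart, up to 3 called in each direction per list, a panel of 32 genes of which 28 were measured, and the 8 that varied most over resistant arrays. Other genes given with values were chosen after their values were seen. Promoters and gene order come from RefSeq (GRCh38.p14). Alternatives were a replicate block, other filters and variance models, array weights, the wider scale, other fold thresholds and leaving out each array.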

Additional observations from a re-analysis of the deposited data

Results flagged for a closer look

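Among the 186 named genes, 11 had 1 resistant array far from the other 4, by Dixon's ratio against its 95% critical value. Chance exceeds that value in about 1 in 20 groups, so 11 of 186 is near the number that chance gives. RFXAP was named for its spread over these same resistant arrays, which favours such a value. Resistant replicate 1 was that array in 8 of the 11. It was highest for MYBPH (10.1, with the other 4 resistant arrays at 9.52 to 9.59), TEAD2 (9.01, with the others at 8.70 to 8.75), COL21A1 (5.22, with the others at 4.73 to 4.83) and CDK2 (9.16, with the others at 8.96 to 9.01). It was lowest for IRF9 (8.65, with the others at 8.96 to 9.08), ORC4 (7.27, with the others at 7.83 to 7.92), LOX (5.90, with the others at 6.39 to 6.55) and RFXAP (4.61, with the others at 5.77 to 6.03). The remaining 3 were STING1, lowest in resistant replicate 2 at 8.03, GBP5, lowest in resistant replicate 4 at 5.91, and ERVW-1, highest in resistant replicate 5 at 10.1. In MYBPH, IRF9, STING1, GBP5, ORC4 and LOX the odd array still lay above every parental array.

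The Rh41 change differed from the SJCRH30 change in all 20 of the largest Rh41 changes (limma, adjusted p under 0.05), against 21.1% of all clusters. The 20 genes were picked for the size of their Rh41 change on the same arrays, which favours a difference. Among the rises the difference, Rh41 minus SJCRH30, was 5.63 for MYL11, 4.71 for MAMDC2, 4.50 for IFIT1, 4.43 for IFI6, 4.02 for PDCD1LG2, 3.84 for SAMD9, 3.68 for MYBPH, 3.67 for TMSB4X, 3.38 for CASP4 and 1.84 for IFI44L. Among the falls it was -8.62 for NID1, -4.86 for LGR5, -2.63 for KCNC2, -2.53 for CNIH2, -2.52 for VGLL2, -2.34 for HSPA4L, -1.97 for ITGB8, -1.83 for DPYSL3, -1.45 for GALNT14 and -0.87 for CD9. GALNT14 did not pass with a replicate block (-1.36, adjusted p = 0.10) or without Rh41 parental replicate 2 (adjusted p = 0.0665) or 3 (adjusted p = 0.0537), Rh41 resistant replicate 4 (adjusted p = 0.0506) or SJCRH30 parental replicate 1 (adjusted p = 0.0735) or 2 (adjusted p = 0.0668). CD9 did not pass when the deposited values were used without mapping (-0.06, adjusted p = 0.926).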

How the results depend on the processing

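No called named gene reversed its direction in any alternative that gave it a value. Named genes that were not called were not checked for a reversal. Of 164 named genes that were called, 135 kept the call in every one of the 15 settings that gave them a value, and 29 lost it in at least 1. In the setting that tested only clusters of mean 5 or more in a group, 10 named genes had no value. Leaving out each array in turn gave 924 to 1206 clusters that rose and 524 to 674 that fell, 40 to 43 antiviral effectors and 27 to 32 sarcomere genes that rose, 10 to 12 PAX3-FOXO1 targets that fell, and 19 or 20 of the 20 genes that differed from SJCRH30. On the wider scale of the other lines 1923 clusters rose and 1575 fell, with 17 PAX3-FOXO1 targets that fell. A threshold of 2-fold left 352 clusters that rose, 110 that fell, 20 sarcomere genes that rose and 4 PAX3-FOXO1 targets that fell, and with no fold threshold 2001 rose and 1628 fell, with 17 PAX3-FOXO1 targets. CCNE1 (-0.72), IFNAR2 (-0.97), CGAS (-0.59) and PAX3 (-0.84) passed on the wider scale. With 1 of the 8 fixed letters of GAAANNGAAA free, 84.9% of antiviral effector promoters held a match, against 27.9% of all promoters. Replicate numbers were not used to pair the samples in the main fit. Same-numbered deviations correlated at -0.04, -0.18 and 0.28, and different-numbered ones at -0.29 to 0.21. Deviations from a mean of 3 parental arrays depend on each other, so these values cannot decide whether the numbers pair the samples. A replicate block gave 1048 rises, 604 falls, 40 antiviral effectors, 31 sarcomere genes, 12 PAX3-FOXO1 targets and 19 genes that differed from SJCRH30. Among the 164 called named genes, low signal limits 37 in 1 group and 6 in both.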
